A study of Mus musculus with 6 samples.

Results

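Clonal haematopoiesis is the outgrowth, with age, of blood cells that descend from a single mutated stem cell. In humans its mutations recur in a small set of genes, and the mouse orthologues of 10 of these genes are described here: Dnmt3a, Tet2, Idh2, Asxl1, Jak2, Cbl, Trp53, Ppm1d, Sf3b1 and Srsf2. They were chosen by gene name from the 54532 genes of the deposited count table, in which each name has a single entry. No measured value entered the rule, though earlier results of these data were known when the genes were chosen. The data are transcript levels. Sequence variants were not analysed here.

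The samples were haematopoietic stem and progenitor cells (HSPCs), the marrow cells that renew the blood, from aged wild-type C57BL/6 mice. RNA of cultured cells was sequenced, in 3 libraries from cells given vehicle and 3 from cells given uridine, the nucleoside from which cells can make pyrimidine nucleotides. All 6 libraries share the aged, wild-type background, so there is no young group and no mutant group. The labels give no age, dose, duration or sorting markers, and do not say whether replicates came from separate mice or cultures, so a p-value here reflects the spread among 6 libraries, part or all of which may be technical.

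The driver genes act in separate processes. Dnmt3a places methyl groups on cytosines in DNA, Tet2 oxidises them as a step of their removal, and Idh2 makes the 2-oxoglutarate on which Tet enzymes depend. Asxl1 is a chromatin adaptor of the deubiquitinase that removes ubiquitin from histone H2A. Jak2 is the kinase of cytokine receptors for erythropoietin and the myeloid growth factors, and Cbl is a ubiquitin ligase that ends signalling from such receptors. Trp53 encodes the p53 tumour suppressor and Ppm1d a phosphatase that switches the p53 response off again. Sf3b1 recognises the branch site of introns as part of the U2 particle, and Srsf2 binds exons to promote their inclusion. In humans, mutation of DNMT3A or TET2 enlarges the stem cell clone mainly by loss of function.

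Totals ran from 16109265 to 18638627 counts per library, and the 10 genes together took 0.231% to 0.234% of the counts in vehicle and 0.224% to 0.225% in uridine libraries. All of 12 HSPC marker genes passed the count filter. So did all 12 monocyte and macrophage markers, so passing it is no test of the HSPC label. Kit had 6166 to 7200 counts and Cd34 9855 to 11740 counts per library, while Slamf1 had 173 to 207 and Procr 64 to 91. Of the 12 HSPC markers 7 rose and 2 fell, the latter being Cd48 and Myb. Without any single library 4 to 6 rose, the lowest number being without uridine replicate 2. Markers of other blood cells moved between the groups. All 12 monocyte and macrophage markers fell, with a summed level of 657 to 672.6 CPM (counts brought to one library size) in vehicle and 270 to 275.6 CPM in uridine libraries. Of 12 neutrophil markers 8 fell and Ltf rose, with a summed 2872 to 2944 CPM against 1571 to 1614 CPM, while Ly6g, which marks mature neutrophils, had at most 1 count. Most of this sum was Mpo, with 33125 to 35192 counts per vehicle library, where S100a8 had 322 to 367 and Camp 28 to 36. The sum is therefore no measure of mature neutrophils. Lymphocyte markers summed to 125.7 to 133.7 CPM in vehicle and 93.9 to 100.6 CPM in uridine libraries. Of these, 4 of 12 could be tested. Ighm, which made up most of the sum, alone fell, and the T-cell gene Cd3g had at most 1 count. Erythroid markers summed to 13.01 to 16.74 CPM against 20.14 to 21.28 CPM, with 3 of 10 tested, Epor rising and both alpha-globin genes at 0. Most of that sum was Epor. Stromal and endothelial markers summed to 209.8 to 211.8 CPM against 202.4 to 207.6 CPM, with 5 of 10 tested and Col1a2 rising. The number that rose was 0 without vehicle replicate 2 or 3 or any 1 of the uridine replicates. Pecam1 made up most of the sum, with 2055 to 2356 counts per library, while Col3a1 and Cxcl12 had at most 2 and Cdh5 at most 9. In bulk RNA, fewer cells of a type and less RNA per cell cannot be told apart, and the part of these shifts in the results on the driver genes was not tested.

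Cbl and Tet2 were lower in uridine-treated cells, each by 1.23-fold, and no driver gene rose. All 10 genes passed the filter on low counts. At an adjusted p under 0.05, 2 of the 10 fell and none rose, where 10.1% of the 14706 genes tested fell, 7.18% rose and 17.3% changed in either direction. At an unadjusted p under 0.05 there were 3, the third being Asxl1, and DESeq2 and limma-voom called the same 2. For 3 of the 10 genes, Cbl, Tet2 and Dnmt3a, every uridine value lay below every vehicle value, and 30.8% of all genes had groups without overlap in either direction. By their fitted values, the remaining 8 genes lay within 10% of their vehicle level. The median absolute log2 change of the 10 genes was 0.037, beside 0.11 over all genes tested. These medians are not matched for level. The 10 genes lay between percentiles 58.5 and 98.4 of mean level, and genes with fewer counts vary more. Every adjusted p here is from edgeR's quasi-likelihood test with Benjamini-Hochberg adjustment over all 14706 genes, and each change is given as the log2 ratio of the uridine to the vehicle level ± SE.

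**Figure D1:**
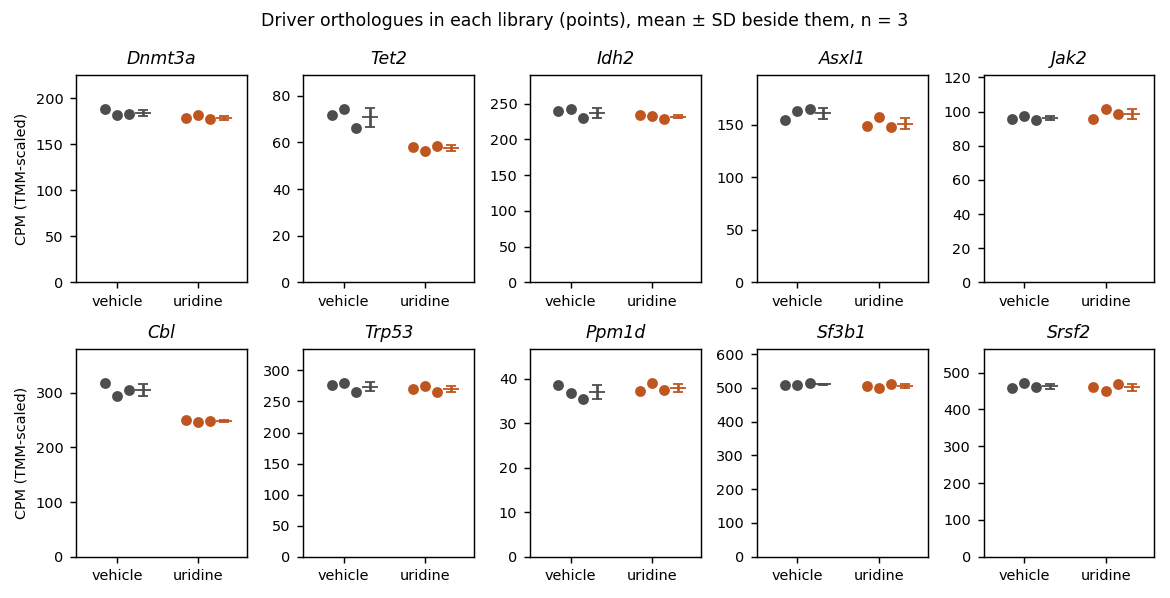
Level of each driver orthologue in CPM in every library, with vehicle in grey, uridine in orange and the mean ± SD (n = 3) beside the points; every axis starts at 0. The uridine points of Cbl, Tet2 and, narrowly, Dnmt3a lie below all their vehicle points, and those of the other genes overlap them.

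The windows before the RefSeq starts of Tet2 and Cbl are shown because these are the driver genes that fell. They are the 250 bases before the RefSeq start on the minus strand of GRCm38, with matches to the searched motifs in capitals, and all these matches are GC boxes (GGGCGG on either strand). The first lies at chr3:133544391-133544640 and the other at chr9:44234047-44234296. That of Tet2 is inside the deposited span of the gene, whose 5′ end is at 133545139, so it precedes the RefSeq start and not the outermost annotated one.
Tet2: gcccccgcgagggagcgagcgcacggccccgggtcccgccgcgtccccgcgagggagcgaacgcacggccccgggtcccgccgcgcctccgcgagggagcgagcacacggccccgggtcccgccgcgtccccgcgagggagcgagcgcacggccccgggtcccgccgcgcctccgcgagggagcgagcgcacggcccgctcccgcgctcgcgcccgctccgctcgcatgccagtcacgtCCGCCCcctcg
Cbl: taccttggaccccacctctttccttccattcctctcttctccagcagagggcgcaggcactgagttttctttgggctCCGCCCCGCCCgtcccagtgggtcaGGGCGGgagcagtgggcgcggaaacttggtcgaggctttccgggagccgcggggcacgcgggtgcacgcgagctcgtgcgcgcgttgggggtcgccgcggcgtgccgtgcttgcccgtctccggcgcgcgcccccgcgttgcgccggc

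Both windows are rich in CpG, with 51 CpG sites and 83.6% G and C in that of Tet2 and 33 sites and 71.6% in that of Cbl, where the median over the 13006 windows of tested genes was 15 sites and 59.6%. GC boxes numbered 1 in the window of Tet2 and 3 in that of Cbl. Such boxes were found before 9 of the 10 driver genes, Trp53 being the exception, and in 56% of the windows of tested genes. Neither window held the other motifs searched, on both strands. These were the CCAAT box, present in 35.4% of the windows of tested genes, and the TATA box with the letters TATAAA, present in 6.37%. An E-box spelled CACGTG was present in 8.24% of those windows and a CRE spelled TGACGTCA in 2.51%. Among motifs of blood cell factors, the PU.1 core GAGGAAGT was present in 2.56%, the ETS core CCGGAAGT in 5.79% and the STAT motif TTCNNNGAA in 5.9%. The RUNX motif TGTGGT was present in 11.2%, the GATA motif AGATAA in 6.12% and an IRF motif in 2.72%. Genes that were not called also had GC boxes there, such as Srsf2 with 5 and Jak2 with 2. Richness in CpG was not particular to the genes that fell either. The window of Jak2 had 37 sites and 80.8% G and C, and that of Srsf2 33 sites and 69.6%. That of Trp53 had 9 sites and 52.8%.

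Per gene length, the driver genes spanned a wide range of levels. In TPM, which divides each count by the deposited gene length and scales each library to a common sum, Srsf2 stood highest at 520.0 ± 8.14 (SD, n = 3, vehicle) and Tet2 lowest at 13.9 ± 0.777, a 37.4-fold difference. Between them came Idh2 at 304.2 ± 8.25, Trp53 at 224.7 ± 5.61, Sf3b1 at 149 ± 0.987, Cbl at 82.1 ± 2.98, Asxl1 at 71.7 ± 2.65, Jak2 at 63.4 ± 0.761, Ppm1d at 38.6 ± 1.58 and Dnmt3a at 36.8 ± 0.62 TPM. Thus 9 of the 10 lay above the vehicle median of tested genes, 21.0 TPM, and Tet2 lay below it. Among vehicle libraries, Ppm1d and Dnmt3a were the neighbours whose ranges overlapped. Among uridine libraries Cbl stood at 65.8 ± 0.639 TPM, just below Asxl1 at 66.5 ± 2.27 TPM and above Jak2 at 64.2 ± 2.0 TPM, and the ranges of these 3 genes overlapped. The order of the other genes was as in vehicle. The deposited lengths combine the exons of all isoforms, and with the longest annotated transcript instead Trp53 stood at 345.6 TPM, above Idh2 at 320.3 TPM, and Dnmt3a at 44.9 TPM, above Ppm1d at 30.0 TPM.

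**Figure D2:**
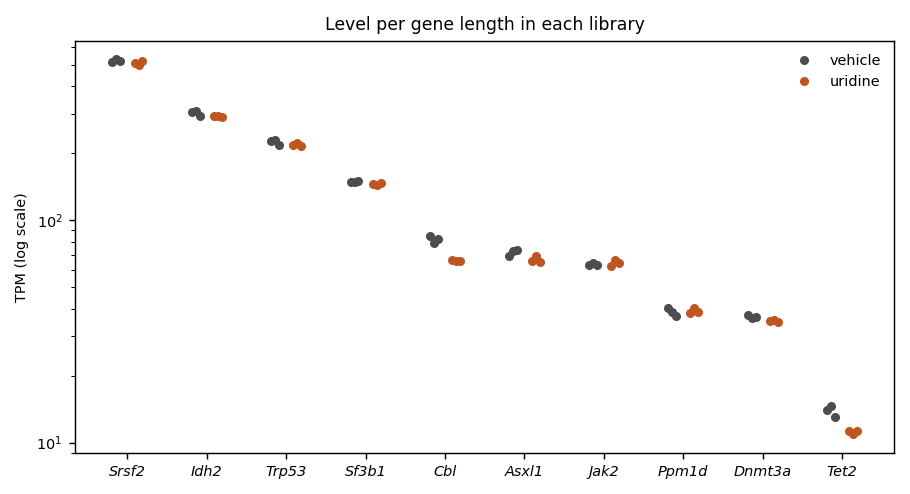
TPM (log axis) of each driver orthologue in the 3 vehicle (grey) and 3 uridine (orange) libraries, ordered by the vehicle mean. Srsf2 is highest and Tet2 lowest, and the uridine points of Cbl lie among those of Asxl1 and Jak2.

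Among the DNA methylation genes, Tet2 fell and Dnmt3a and Idh2 were not called. Tet2 (ENSMUSG00000040943; chromosome 3, 133463679 to 133545139, minus strand, mm10) had 71.6, 74.2 and 66.3 CPM in the vehicle libraries and 58.2, 56.2 and 58.2 CPM in the uridine libraries. All uridine values lay below all vehicle values, and the vehicle libraries spread more widely. The means were 70.7 ± 4.04 and 57.5 ± 1.17 CPM (SD, n = 3), a change of -0.30 ± 0.051 with an adjusted p of 5.2e-06. An antisense gene that overlaps its span had at most 1 count.

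Dnmt3a (ENSMUSG00000020661; chromosome 12, 3806007 to 3914443, plus strand) had 188, 181.5 and 183.3 CPM with vehicle and 178, 181.4 and 177 CPM with uridine. The groups came as close as 181.5 and 181.4 CPM without overlapping. Its change was -0.043 ± 0.030 (adjusted p = 0.38), and the 95% interval ran from -6.94% to 1.24%. Idh2 (ENSMUSG00000030541; chromosome 7, 80094846 to 80115392, minus strand), whose enzyme works in mitochondria, had 239.8, 242.1 and 229.3 CPM with vehicle and 233.5, 232.7 and 228.9 CPM with uridine. These ranges overlapped, and its change of -0.033 ± 0.028 (adjusted p = 0.49) had an interval from -5.94% to 1.6%.

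Among their relatives changes in both directions were called. Dnmt3b, the other de novo methyltransferase, rose from 134 ± 0.141 to 153 ± 2.88 CPM (0.19 ± 0.034, adjusted p = 7.2e-06). Idh1, the cytosolic counterpart of Idh2 and also a human driver gene, fell from 102 ± 4.23 to 86.0 ± 2.26 CPM (-0.24 ± 0.042, adjusted p = 6.8e-06). Tet3 (-0.029 ± 0.029, adjusted p = 0.57) and Tet1 (0.037 ± 0.067, adjusted p = 0.79) were not called. Dnmt1, the maintenance methyltransferase, was called at a change of -0.052 ± 0.019 with an adjusted p of 0.039, and this call was lost without any single library, at adjusted p from 0.057 to 0.18. Of 13 tested writers and readers of DNA methylation 1 rose and 3 fell, with a median of -0.0073. Besides Dnmt1, those that fell were the remodeller gene Hells (-0.19 ± 0.035) and Uhrf1 (-0.073 ± 0.024), which guides Dnmt1 to replicated DNA. The call of Uhrf1 was lost without vehicle replicate 1 or 3 (adjusted p 0.066 and 0.11) or uridine replicate 1 (0.25). Of 18 genes of demethylation and 2-oxoglutarate supply none rose and 3 fell, with a median of 0.0038. Idh1 and the glutamate dehydrogenase gene Glud1 (-0.091 ± 0.026, adjusted p = 0.0082) were among those that fell, and Glud1 lost its call without vehicle replicate 2 (0.075) or uridine replicate 2 (0.062).

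Asxl1 (ENSMUSG00000042548; chromosome 2, 153345829 to 153404007, plus strand) was the gene nearest to the threshold among those not called. It had 154.3, 163.1 and 164.8 CPM with vehicle and 148.6, 157 and 147.9 CPM with uridine. The highest uridine value lay above the lowest vehicle value, so the groups overlapped. Its change was -0.088 ± 0.034 with an adjusted p of 0.061, and the interval ran from -10.2% to -1.42%. It was called without vehicle replicate 1 (-0.12, adjusted p = 0.02) or uridine replicate 2 (-0.12, adjusted p = 0.026) and not without any of the others. An antisense transcript at the locus, 2500004C02Rik, had 64 to 99 counts against 2384 to 2961 for Asxl1, and the strand setting of the counting is not given in the sources used here. The paralogue Asxl2 was not called (-0.064 ± 0.037, adjusted p = 0.26). Of 21 tested partners 1 rose and 3 fell, with a median of 0.0042. Hcfc1, a cell-cycle cofactor bound by the same deubiquitinase, fell (-0.10 ± 0.020, adjusted p = 3.4e-05) and Ogt, which adds the UDP-derived sugar GlcNAc to Hcfc1 and other proteins, rose (0.088 ± 0.023, adjusted p = 0.0032). Mbd5 (-0.24 ± 0.074) and the repressor gene Foxk1 (-0.12 ± 0.042) also fell, and each lost its call without any of several libraries, at adjusted p of up to 0.088 for Mbd5 and 0.37 for Foxk1.

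Of the signalling pair, Cbl fell and Jak2 was not called. Cbl (ENSMUSG00000034342; chromosome 9, 44142976 to 44234049, minus strand) had 316.8, 294 and 304.4 CPM in the vehicle libraries and 250.6, 245.6 and 247.9 CPM in the uridine libraries. The lowest vehicle value stood well above the highest uridine value. The means were 305.1 ± 11.4 and 248 ± 2.52 CPM (SD, n = 3), a change of -0.30 ± 0.027 with an adjusted p of 7.2e-15, the smallest among the 10 genes. Its paralogue Cblb was not called (0.016 ± 0.069, adjusted p = 0.92).

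Jak2 (ENSMUSG00000024789; chromosome 19, 29251828 to 29313080, plus strand) had 95.85, 97.37 and 94.96 CPM with vehicle and 95.42, 101.4 and 98.87 CPM with uridine. The ranges overlapped, with the lowest value in a vehicle library and the highest in a uridine library. Its change was 0.038 ± 0.041 (adjusted p = 0.61), with an interval from -2.95% to 8.59%. The other kinases of the family, Jak1 (-0.00033 ± 0.026), Jak3 (-0.038 ± 0.029) and Tyk2 (0.053 ± 0.040), were not called either, at adjusted p of 1, 0.44 and 0.41.

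Around Jak2, 5 of 27 tested receptors, STATs and brakes rose and 7 fell, with a median of -0.021. Those that rose included the erythropoietin receptor gene Epor (0.49 ± 0.11, adjusted p = 0.00068), whose product signals through Jak2. Socs2 (0.35 ± 0.078, adjusted p = 0.00041), a feedback inhibitor of cytokine signalling, and the survival gene Bcl2l1 (0.21 ± 0.046, adjusted p = 0.00053) rose too. Those that fell included the myeloid receptor genes Csf3r (-0.75 ± 0.047), Csf2ra (-0.44 ± 0.055) and Csf2rb (-0.26 ± 0.031) and the phosphatase gene Ptpn6 (-0.22 ± 0.031), all with adjusted p of 3.4e-08 or less. Csf2rb has a near-identical copy that may share its reads. The monocyte and neutrophil markers given above, 12 of 12 and 8 of 11 of which fell, moved in the same libraries.

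Around Cbl, 4 of 23 tested partners and receptors rose and 7 fell, with a median of -0.030. The receptors went both ways. Csf1r, the macrophage colony-stimulating factor receptor gene, fell from 67.3 ± 3.59 to 21.4 ± 0.558 CPM (-1.65 ± 0.065, adjusted p = 1.8e-33), and the genes of the receptors Met (-1.24 ± 0.11), Flt3 (-0.32 ± 0.041) and Igf1r (-0.19 ± 0.029) fell with it. Those that rose included the adaptor gene Crk (0.16 ± 0.036), which binds phosphorylated Cbl, the kinase gene Syk (0.095 ± 0.025) and Kit (0.070 ± 0.023). Kit lost its call without vehicle replicate 2 or uridine replicate 2 or 3 (adjusted p 0.076, 0.086 and 0.064), and Syk without vehicle replicate 3 (0.051). Csf1r is itself among the 12 monocyte markers that fell.

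Neither gene of the p53 branch was called. Trp53 (ENSMUSG00000059552; chromosome 11, 69580359 to 69591873, plus strand) had 276.6, 279 and 265.4 CPM with vehicle and 270, 274.3 and 266 CPM with uridine, and all uridine values lay within the vehicle range. Its change was -0.019 ± 0.026 (adjusted p = 0.71), with an interval from -4.83% to 2.38%. Ppm1d (ENSMUSG00000020525; chromosome 11, 85311244 to 85347066, plus strand) had 38.5, 36.9 and 35.3 CPM with vehicle and 37.1, 38.9 and 37.5 CPM with uridine, so the ranges overlapped. It had the fewest counts of the 10, 604 to 726 per library, and the widest interval, from -6.46% to 12.4% around a change of 0.036 ± 0.066 (adjusted p = 0.79). Among its family Ppm1a (0.0073 ± 0.044) and Ppm1b (-0.012 ± 0.043) were not called, Ppm1g rose (0.088 ± 0.026, adjusted p = 0.0096) and Ppm1f fell (-0.26 ± 0.040, adjusted p = 4.9e-07). Ppm1g lost its call without uridine replicate 3 (0.16). Of 12 family members tested 1 rose and 2 fell, with a median of -0.027; the other that fell was Ppm1m (-0.22 ± 0.071), whose call was lost without vehicle replicate 1 or 2 or uridine replicate 1 or 2, at adjusted p from 0.056 to 0.1.

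Of 41 tested genes that p53 is known to induce 2 rose, 9 fell and 30 were not called, with a median of -0.011. Without vehicle replicate 1 the falls numbered 5 and the rises 0, and without vehicle replicate 3 they numbered 7 and 0. The largest change was in Pmaip1, which encodes the death-promoting BH3 protein Noxa, with 20.8, 22.8 and 21.9 CPM in vehicle and 6.83, 6.75 and 6.89 CPM in uridine libraries (-1.68 ± 0.11, adjusted p = 3.7e-21). The semaphorin receptor gene Plxnb2 (-0.62 ± 0.045, adjusted p = 2.3e-19), the apoptosome gene Apaf1 (-0.16 ± 0.037, adjusted p = 0.001) and the cyclin G1 gene Ccng1 (-0.099 ± 0.027, adjusted p = 0.0049) fell as well. Ccng1 lost its call without uridine replicate 2 (0.069). The targets that rose were Sertad1 (0.35 ± 0.11) and Triap1 (0.26 ± 0.085). Sertad1 lost its call without vehicle replicate 1 (0.059) or 3 (0.11), and Triap1 without vehicle replicate 1 or 3 or uridine replicate 1 or 2, at adjusted p from 0.067 to 0.14. The cell-cycle inhibitor gene Cdkn1a (-0.078 ± 0.036, adjusted p = 0.13) and Mdm2 (0.060 ± 0.037, adjusted p = 0.3), the ligase that degrades p53, were not called, though Cdkn1a was called without vehicle replicate 2 (-0.11, adjusted p = 0.047). Of 18 tested p53 regulators 2 rose and 1 fell, with a median of 0.027. Rpl11, a ribosomal protein that binds Mdm2, rose by 0.21 ± 0.019 (adjusted p = 1.5e-14), though ribosomal protein genes have processed copies that may share reads. The deacetylase gene Sirt1 (0.17 ± 0.060, adjusted p = 0.039) and the deubiquitinase gene Usp7 (-0.072 ± 0.026, adjusted p = 0.041) lay close to the threshold. Usp7 lost its call without any single library (0.054 to 0.18), and Sirt1 without any except uridine replicate 3 (0.068 to 0.14).

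The splicing genes had the smallest SEs of the 10 drivers, and in the treatment-only fit the smallest changes. Sf3b1 (ENSMUSG00000025982; chromosome 1, 54985169 to 55027481, minus strand) had 508.5, 510.1 and 513.1 CPM with vehicle and 506.8, 499.3 and 511.6 CPM with uridine, and the ranges overlapped. Its change was -0.014 ± 0.021 (adjusted p = 0.74), with an interval from -3.72% to 1.93%. Srsf2 (ENSMUSG00000034120; chromosome 11, 116849901 to 116853094, minus strand) had 456.9, 470.5 and 461.8 CPM with vehicle and 461.4, 450.8 and 468.9 CPM with uridine, with ranges that overlapped. It changed by -0.0088 ± 0.022 (adjusted p = 0.85), with an interval from -3.54% to 2.42%. Its locus overlaps Mfsd11 and Mettl23 on the other strand, which had 372 to 480 and 303 to 371 counts against 7559 to 8416 for Srsf2.

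Of 23 tested genes listed as branch-site and related splicing factors, U2af2 rose (0.080 ± 0.023, adjusted p = 0.0089). Prpf8, at the core of the spliceosome, fell (-0.093 ± 0.018, adjusted p = 3.1e-05), and the list had a median of 0.041. U2af2 lost its call without vehicle replicate 1 (0.052). The Sf3b subunit genes Sf3b2 (0.018 ± 0.022) and Sf3b3 (0.041 ± 0.021) were not called. Of 21 SR proteins and related factors 2 rose and 3 fell, with a median of -0.0038. Those that fell were the related factors Srrm2 (-0.16 ± 0.016, adjusted p = 1.3e-12), Son (-0.090 ± 0.018) and Srrm1 (-0.089 ± 0.024), and those that rose were the SR genes Srsf7 (0.094 ± 0.025, adjusted p = 0.0036) and Srsf5 (0.068 ± 0.023, adjusted p = 0.033). Srsf5 lost its call without vehicle replicate 2 or 3 or uridine replicate 1 or 3, at adjusted p from 0.09 to 0.26. Srsf1 (-0.0038 ± 0.019) and Srsf3 (0.055 ± 0.021, adjusted p = 0.066) were not called, though Srsf3 was called without vehicle replicate 2 (0.077, adjusted p = 0.017) and with library totals as the only scaling (0.064, adjusted p = 0.026).

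Orthologues of other human driver genes were counted as well. Of 53 tested genes of this kind 17 fell (32.1%) and 4 rose (7.55%), beside the 10.1% and 7.18% of all genes given above, with a median of -0.042. The smallest p-values among those that fell belonged to Csf3r, the histone methyltransferase gene Kmt2d (-0.26 ± 0.024, adjusted p = 3.7e-14), Calr (-0.16 ± 0.016) and Notch1 (-0.53 ± 0.054). Those that rose included Gata2 (0.22 ± 0.026), Dnmt3b and Kit. The list holds many long genes: 41.5% exceeded 8000 bases, against 14.9% of all tested genes, and 9 of the 17 that fell were of this length. With the trend of change with gene length removed, 9 fell and 7 rose.

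**Figure D3:**
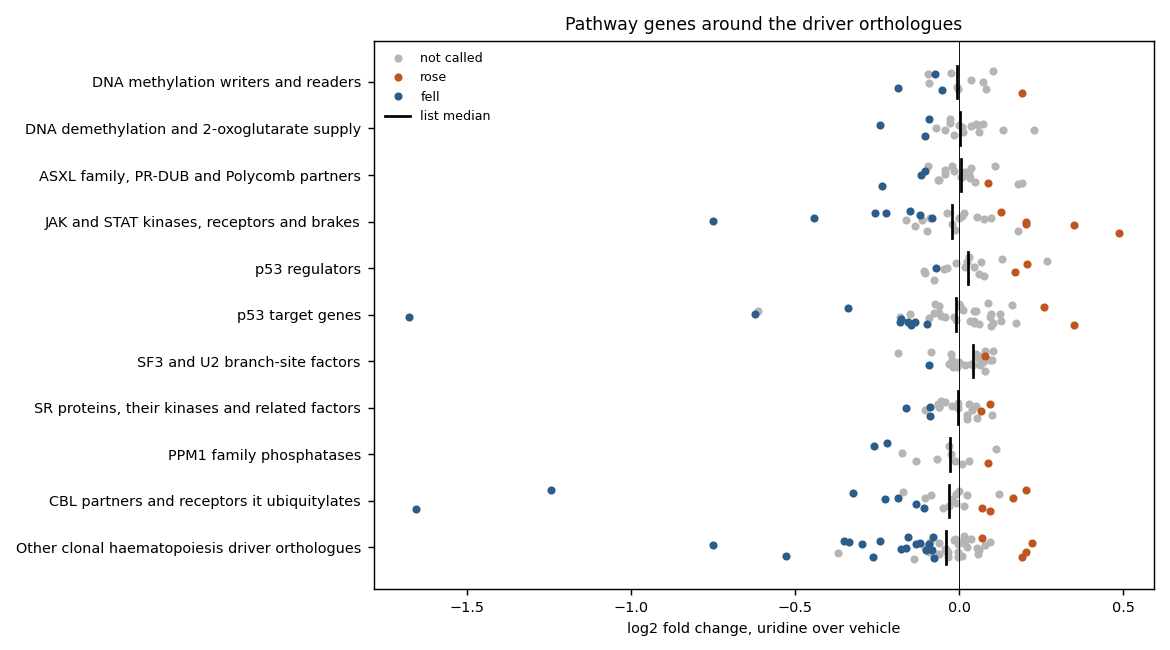
Log2 fold change, uridine over vehicle, of each tested gene in 11 lists around the driver orthologues; genes that rose are orange, genes that fell blue, genes not called grey, and black bars are list medians. The medians lie between -0.042 and 0.041, and the largest falls are in myeloid receptors, Met and the p53 target Pmaip1.

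Over the 246 tested genes of all 11 lists, 52 fell (21.1%) and 19 rose (7.72%). By list, removal of the length trend took the falls from 3 to 1 among methylation writers and readers and among demethylation genes, from 3 to 0 around Asxl1, from 7 to 4 around Jak2 and around Cbl, from 9 to 4 among p53 targets and from 3 to 1 among SR factors, while rises went from 2 to 6 among p53 regulators and among SR factors. Over all 11 lists the split turned, to 24 that fell (9.76%) and 38 that rose (15.4%), where over all genes 7.2% fell and 9.69% rose in that fit. The median log2 change over all genes tested was also higher there, at 0.030 against 0.0053. The part of this shared shift in the turn was not tested.

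Gene length moved with the fold change in the whole table. The median log2 change was 0.11 over 1353 genes of up to 1000 bases and -0.077 over 701 genes above 12000 bases, of which 30.4% fell and 2.85% rose. Of all calls, 58.5% were falls in the treatment-only fit and 42.6% with the length trend removed. The median log2 change over all genes tested was 0.0053 and 0.030 in these fits. Tet2 (16870 bases), Dnmt3a (16642 bases) and Cbl (12345 bases) are in the longest class, and Sf3b1 has 11370 bases. At these lengths the trend amounted to -0.10 for Tet2 and Dnmt3a, -0.080 for Cbl and -0.074 for Sf3b1.

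Cbl and Tet2 remained called with the trend removed, at -0.22 ± 0.027 (adjusted p = 6.9e-10) and -0.20 ± 0.052 (adjusted p = 0.0036), the latter a value 1.5 times smaller than before. Sf3b1 changed sign and was called higher, at 0.061 ± 0.021 (adjusted p = 0.031), an increase that the treatment-only fit did not show. The median log2 change over all genes tested was higher too, at 0.030 against 0.0053 in the treatment-only fit. Upward moves with the trend removed thus include a shift shared by the median gene. Dnmt3a also changed sign, to 0.057 ± 0.031 (adjusted p = 0.21), and was not called in either fit. Asxl1 stood at -0.041 ± 0.034 (adjusted p = 0.47). Among the genes named, the falls of Dnmt1, Uhrf1, Glud1, Hcfc1, Mbd5, Foxk1, Usp7, Apaf1, Prpf8, Son and Srrm1 and the rise of Triap1 were no longer called, and Srsf3, Sf3b3 and the p53 inhibitor gene Mdm4 were called higher, at 0.11, 0.11 and 0.081. Which of the fits is nearer to the transcript levels in the cells was not tested.

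**Figure D4:**
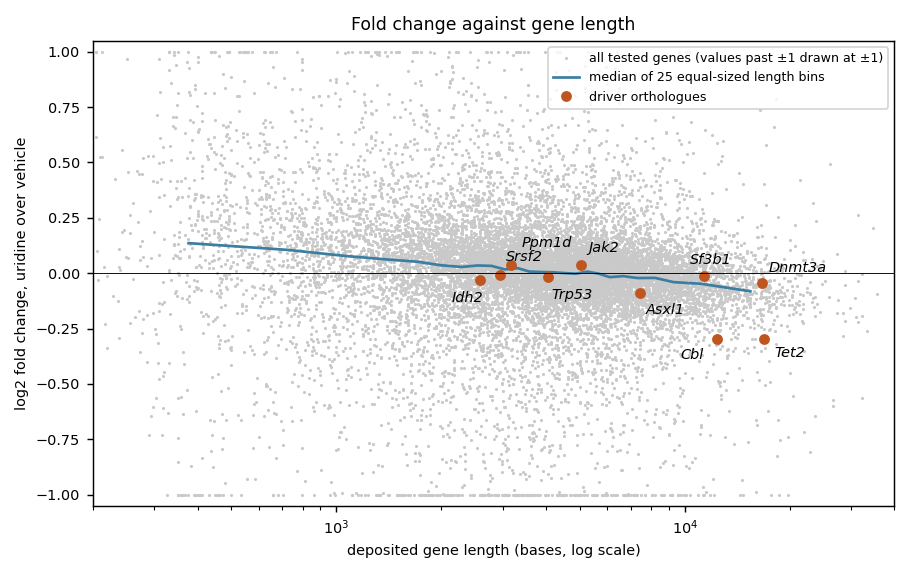
Log2 fold change, uridine over vehicle, against deposited gene length in bases (log axis) for all tested genes (grey; values past ±1 are drawn at ±1), the median of equal-sized length bins (line) and the 10 driver orthologues (orange). Cbl and Tet2 lie below the line at their length, and Dnmt3a and Sf3b1 lie above it.

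**Figure D5:**
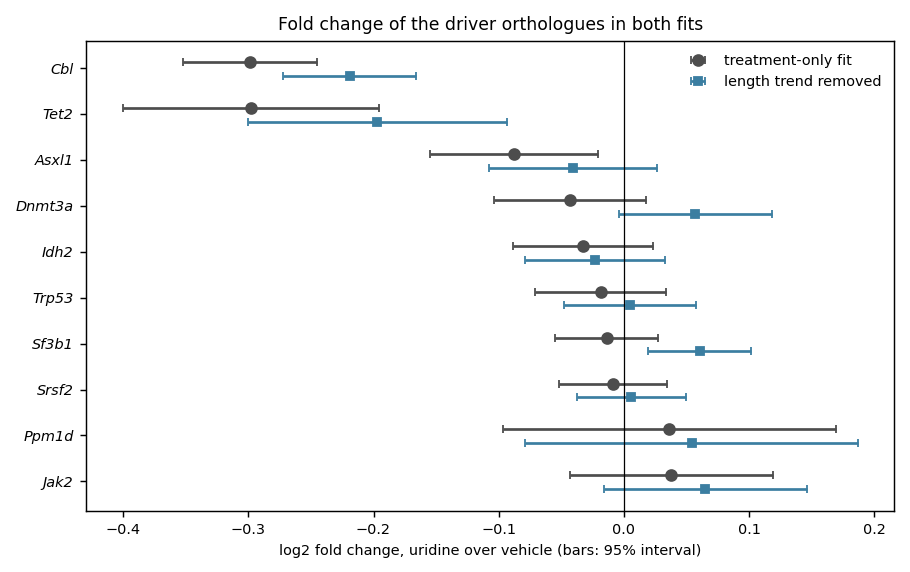
Log2 fold change of each driver orthologue with its 95% interval in the treatment-only fit (grey circles) and with the length trend removed (blue squares). The intervals of Cbl and Tet2 lie below 0 in both fits, and that of Sf3b1 lies above 0 with the length trend removed.

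A ratio of counts within each library is free of scaling between libraries, and 6 pairs of a driver gene and a paralogue were compared in this way, chosen after the values were seen. The log2 ratio of Tet2 to Tet3, genes of similar length (16870 and 16695 bases), was -1.70 to -1.48 in vehicle and -1.89 to -1.84 in uridine libraries, a difference of -0.27. That of Cbl to Cblb (10475 bases) was 3.09 to 3.22 against 2.79 to 2.88, a difference of -0.31. The ratio of Idh2 to Idh1, of 2588 and 2771 bases, was higher with uridine by 0.21 on the log2 scale, and that of Dnmt3a to the much shorter Dnmt3b differed by -0.23. In these 4 pairs the groups did not overlap, and the exact two-sided permutation p was 0.1, the smallest that 3 against 3 libraries can give (0.15 adjusted over the 6 pairs). For Asxl1 to Asxl2 (-0.024, exact permutation p = 0.5) and Jak2 to Jak1 (0.037, exact permutation p = 0.4) the groups overlapped.

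The genes whose pattern over the 6 libraries was most like that of a driver gene were found by the root mean square difference of centred log2 CPM, among 1907 candidate genes for Tet2 and 2010 for Cbl, all protein-coding and well counted. Closest to Cbl were Crebbp, a histone acetyltransferase gene that is itself mutated in human blood cancers, and the progranulin gene Grn, with differences of 0.020 and 0.021 where Cbl had a standard deviation of 0.17. Crebbp had 103, 94.8 and 95.2 CPM with vehicle and 81.1, 77.7 and 80.0 CPM with uridine (-0.30 ± 0.043, adjusted p = 1.2e-07). Closest to Tet2 were Tmed3, a cargo receptor gene of the early secretory pathway, and Atp10a, a phospholipid flippase gene, with differences of 0.032 and 0.033 where Tet2 had a standard deviation of 0.17. The measure describes 6 libraries in a pair of groups.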

How the data were processed

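The table the authors deposited holds raw counts of each gene in 6 libraries, with its position, biotype and length. Per the labels' protocols, mRNA was captured on poly-T beads from Trizol-extracted RNA and sequenced as paired reads on a NovaSeq instrument. Per the submitters' processing notes, reads went through HISAT2 2.0.5 with the mm10 build. Which counting program, annotation release and strand setting followed is not given in the sources used here.

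Columns were assigned by the sample names in the labels. Genes were filtered with filterByExpr, scaled by TMM factors and tested in edgeR 4.0.16 under R 4.3.3 (robust quasi-likelihood F test with treatment as the only term), with Benjamini-Hochberg adjustment and a threshold of 0.05. At these depths 3 counts correspond to 0.161 to 0.186 CPM; counting error alone is covered. The SE is the coefficient over the square root of F. The coefficient of variation beyond counting error was 3.42%. A chi-square comparison of counts gave 2.25 to 2.47 per gene for each pair of replicates, more than sampling noise, and none was a repeat of another. The treatment-only fit and some of its alternatives were tested on simulated data with known folds. Those folds did not depend on gene length, so the simulation could not test the removal of a length trend.

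Alternatives were DESeq2 1.42.0 (size factors and Wald test), limma-voom (limma 3.58.1), other filters and scalings, a replicate block, removal of a loess trend with gene length, protein-coding genes alone, and each library left out. The genes named are the 10 drivers, their nearest paralogues, up to 4 called genes with the smallest p in each list and direction, and the genes most like each called driver. The drivers and the lists were chosen with earlier results of these data known, from textbook knowledge, and some lists share genes. Gene ends of all 10 drivers were the same in GENCODE vM21, and RefSeq promoter windows (GRCm38.p6) were found for all 10. Some genes that the naming rule picks are counted within their lists and not reported here by name.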

Additional observations from a re-analysis of the deposited data

How the results depend on the processing

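Cbl and Tet2 were called lower under all 16 alternatives, with log2 changes from -0.32 to -0.22 and from -0.34 to -0.20. No pairing by replicate number was seen, as the same-number correlations of deviations were -0.015, 0.027 and -0.014. Counting error can hide a shared part, so these values cannot exclude a pairing. With a replicate block the same 2 driver genes were called, and 972 genes rose and 1428 fell in the whole table.

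Removing the length trend, alone or with the block, changed several values, and the cause was not tested. It gave 1 driver gene that rose in each of these fits, 38 and 37 risen pathway genes, and 24 and 22 fallen ones. The median log2 change over all genes tested was 0.030 and 0.029 in these fits, against 0.0053 in the treatment-only fit. The log2 changes became 0.057 and 0.057 for Dnmt3a, 0.0049 and 0.0046 for Trp53, 0.061 and 0.061 for Sf3b1, and 0.0059 and 0.0059 for Srsf2. They became 0.071 and 0.072 for Tet3, 0.033 and 0.033 for Asxl2, 0.045 and 0.045 for Jak1, 0.081 and 0.080 for Mdm4, 0.029 and 0.029 for Srsf1, 0.014 and 0.016 for Ppm1b, and 0.0023 and 0.0023 for Son. Scaling by library total alone gave 0.00037 for Srsf2, 0.0088 for Jak1 and 0.0053 for Srsf1. For Jak1, limma-voom gave 0.00044 and protein-coding genes alone 0.0032. With DESeq2, 688 genes rose in the whole table. Its Wald test did not call Dnmt1, Uhrf1, Foxk1, Sirt1, Usp7, Triap1, Srsf5 or Ppm1m, at adjusted p from 0.053 to 0.14. With library totals as the only scaling, edgeR did not call Dnmt1, Uhrf1, Foxk1 or Usp7 (adjusted p from 0.054 to 0.1). The limma-voom test did not call Foxk1 (adjusted p = 0.07).

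With each replicate left out in turn, Asxl1 ranged from -0.12 to -0.069 and Srsf2 from -0.023 to 0.0073. Ppm1d ranged from 0.0063 to 0.069, Jak2 from 0.017 to 0.061, Trp53 from -0.040 to -0.0045, Idh2 from -0.056 to -0.017, Sf3b1 from -0.023 to -0.0031 and Dnmt3a from -0.054 to -0.027, none of them called. Among falls, methylation writers and readers had 1 or 2 in place of 3, and partners of Asxl1 1 to 3 in place of 3. The other values that crossed 0 were Jak1 (-0.016 to 0.020), Cblb (-0.016 to 0.042), Mdm4 (-0.032 to 0.00022), Srsf1 (-0.012 to 0.013), Ppm1a (-0.027 to 0.039), Ppm1b (-0.036 to 0.016) and the ratio of Asxl1 to Asxl2 (-0.050 to 0.0061). Gene lengths from the longest annotated transcript, an alternative chosen after seeing the data, gave vehicle levels of 44.9 TPM for Dnmt3a, 18.2 TPM for Tet2, 320.3 TPM for Idh2, 54.3 TPM for Asxl1, 45.0 TPM for Jak2, 63.2 TPM for Cbl, 345.6 TPM for Trp53, 30.0 TPM for Ppm1d, 194 TPM for Sf3b1 and 575.0 TPM for Srsf2. With 3 libraries a group and 604 to 726 counts, the interval of Ppm1d ran from -6.46% to 12.4%, and any change inside it remains compatible with the data.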
